A study of Mus musculus with 33 samples.

Results

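Donor monocytes that had settled in the spleen were compared between manipulated and non-manipulated recipients 1 day after transfer. The members are 57 transcripts in 6 libraries, 3 from the spleen of manipulated recipients and 3 from the spleen of non-manipulated recipients, out of 33 libraries in the series. Libraries were taken by the tissue and condition in their labels, and the genes are all panel genes with a value in every library, 57 of 67 listed. CD11b+Ly6C+ monocytes had been purified from bone marrow (BM) of CD45.2+ C57BL/6 donors and injected intravenously. The methods of the study give these donors as WT or CX3CR1gfp/+, and the titles of the spleen libraries do not name the donor genotype. The recipients of both groups were CD45.1+ C57BL/6 CCR2-/- mice, which lack the chemokine receptor that lets monocytes leave the marrow. Manipulated recipients had undergone surgery 1 day before the transfer, in which the small intestine was pressed flat, under ketamine and xylazine and with Novalgin given in the drinking water, which inflames the gut wall. Non-manipulated recipients had no operation, and no library from a sham-operated mouse was analysed here, so that gut handling, incision, anaesthesia and analgesic cannot be told apart. The age of the mice is not given in the sources used here. The comparison asks whether monocytes that reach an organ away from the inflamed gut differ in their transcripts.

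Classical monocytes express Ly6C and CCR2, leave the marrow with the blood and enter the spleen, which filters blood and holds a reservoir of monocytes. There they can remain monocytes, become Ly6C-low patrolling monocytes that carry the fractalkine receptor CX3CR1, or mature towards macrophages and dendritic-like cells that gain MHC class II and the integrin CD11c. Bacterial products and cytokines in the blood drive monocytes to make interleukin-1, and interferons drive them to make the chemokines of the CXCL9 family.

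Transcripts of 100 sorted cells per library were hybridised to barcoded probes on the nCounter system, which counts the barcodes. The 6 spleen libraries held between 1263421 and 1549969 counts, with a background from negative control probes between 31 and 65.2 counts, and 51 of the 57 genes (89.5%) exceeded it in all 6 libraries. Levels are given below as log2 of the normalised count plus 1, where normalised means divided by a factor from Actb, Gapdh and Rpl19, so that a difference of 1 is a change of 2-fold. The house-keeping genes did not move together: on this scale Rpl19 was at 12.09, 11.75 and 13.09 in manipulated recipients, against 11.24, 10.88 and 12.53 in non-manipulated recipients, whereas Actb averaged 0.58 lower in manipulated recipients. The median difference over the 57 genes was therefore -0.28 with all 3 house-keeping genes, 0.10 without Rpl19 and -0.57 without Actb, and 0.05 with TMM factors. The sign of the difference changed for 14 of the 57 genes with TMM factors and for 15 without Rpl19, among them Ccr2, Itgb7, Cxcl1, Tnf and Spi1. Transcripts were copied by PCR before hybridisation, so that counts are not independent molecules.

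The recovered cells carried monocyte transcripts in both groups. Ccr2, the gene disrupted in the recipients, was at 15.22, 15.36 and 16.01 in manipulated recipients and at 16.44, 14.62 and 16.40 in non-manipulated recipients. Chil3, a secreted chitinase-like protein of classical monocytes, lay between 16.42 and 16.89 in manipulated and between 15.32 and 16.41 in non-manipulated recipients, and Spi1, the transcription factor PU.1 of the myeloid lineage, between 16.26 and 16.53 in manipulated and between 16.17 and 16.94 in non-manipulated recipients. These are among the higher levels on the panel. In library 2 of non-manipulated recipients, however, Ccr2 and Chil3 lay below several other genes, such as Fcgr1 at 16.08 and Csf1r at 15.79. Defining markers of neutrophils, lymphocytes, erythroid cells and platelets have no measured gene here, and of the dendritic cell list only Ccr7, which guides cells into lymph nodes, was measured, at 9.90, 11.10 and 11.06 in manipulated and at 10.76, 10.77 and 9.43 in non-manipulated recipients.

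Library 2 stood apart from libraries 1 and 3 in each group, and this decides several of the results. In a principal component analysis of the 57 genes the first component held 62.3% of the variance and placed library 2 at 7.67 in manipulated recipients, where libraries 1 and 3 were at -9.01 and -9.76. In non-manipulated recipients library 2 was at 9.84, and libraries 1 and 3 were at 1.07 and 0.19. The first component thus also set libraries 1 and 3 of the 2 groups apart. On the second component (24.1%) libraries 1, 2 and 3 were at -2.97, -2.64 and -2.83 in manipulated recipients. In non-manipulated recipients they were at 7.69, -4.41 and 5.15. Over the 57 genes library 2 of manipulated recipients correlated at 0.969 with library 2 of non-manipulated recipients, but at 0.786 and 0.768 with libraries 1 and 3 of its own group. The correlation is across genes, which are not independent replicates, and it is given as a description only. In the labels the number counts mice within a group, and nothing there says that same-numbered libraries share an animal, a litter or a day.

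No gene passed the adjusted threshold of 0.05 in the spleen (limma, a common fit over the 33 libraries, Benjamini-Hochberg adjustment over 57 genes), which is 0% of the genes tested. The smallest adjusted p was 0.111. At an unadjusted p under 0.05 there were 6 genes, or 10.5%: Cx3cr1, Itgax, Il10ra, Tlr1 and Il10 (8.77%) were lower and Cd14 (1.75%) was higher in manipulated recipients. The edgeR quasi-likelihood test called 0 genes after adjustment and 5 at an unadjusted p under 0.05. DESeq2 called 2 genes, Cd14 and Cx3cr1, or 3.51%, with 7 at an unadjusted p under 0.05. The methods' t-test, which uses the spread of the spleen libraries only, had 4 genes at an unadjusted threshold of 0.05 and 0 after adjustment. Of the 6 limma genes only Cx3cr1 and Tlr1 were among these 4. The median half-width of the 95% confidence interval (CI) was 1.41, a 2.65-fold change in either direction. With 3 libraries a group, smaller differences were in general not detectable even before adjustment. After adjustment larger ones went uncalled as well, such as -3.52 for Cx3cr1. The difference was under 1 log2 unit in 41 genes, 13 were lower by 1 or more and 3 were higher by 1 or more. The plot of the differences shows how wide the intervals were.

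**Figure D1:**
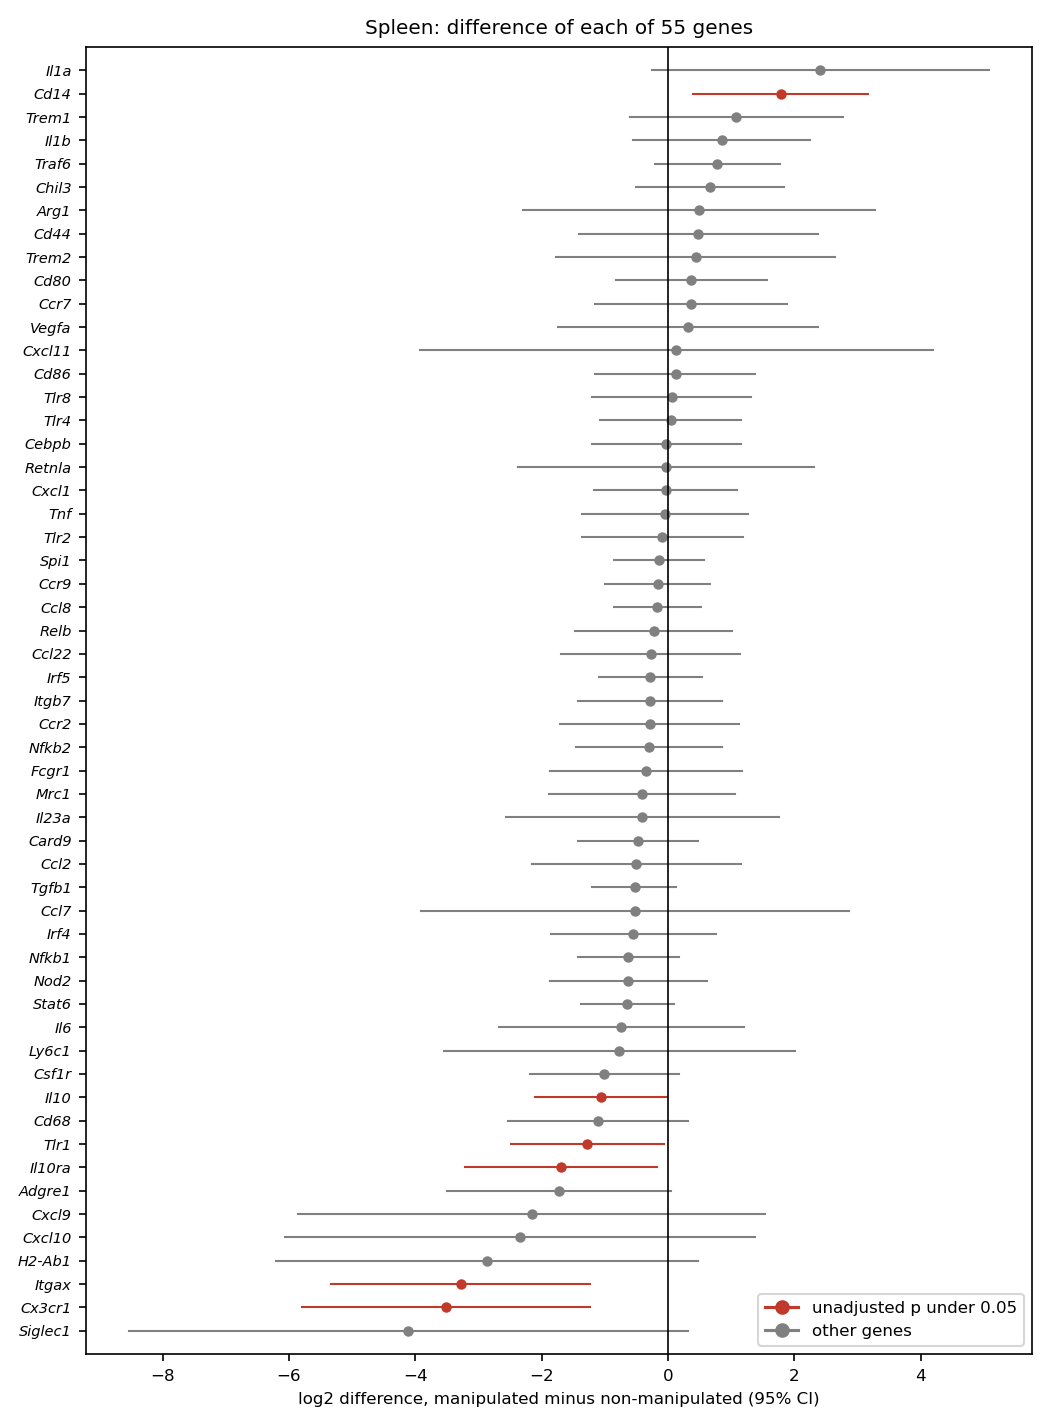
Difference of each of 55 genes between manipulated and non-manipulated recipients in the spleen (x axis, log2, manipulated minus non-manipulated), sorted by size, with 95% confidence intervals from limma. Only 6 intervals, in red, leave out 0, and none of these genes passed after adjustment (smallest adjusted p 0.111).

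Of the genes lower in manipulated recipients without overlap between the groups, the largest difference was that of Cx3cr1, the fractalkine receptor of patrolling monocytes and resident macrophages. Its normalised count was 248, 468 and 146 in the 3 libraries of manipulated recipients, against 9148, 1052 and 2675 in those of non-manipulated recipients. The groups did not overlap, and the lowest non-manipulated library, number 2, was still above the highest manipulated one, also number 2. The difference was -3.52 ± 1.11 (SE, n = 3 each), 11.5-fold lower, with a 95% CI of -5.80 to -1.24 and a limma adjusted p of 0.111. Between same-numbered libraries the difference was -5.20, -1.17 and -4.19, so that it was smallest for number 2. The donors were WT or CX3CR1gfp/+, a GFP reporter strain of this gene, and the titles of the spleen libraries do not tell which. The part of donor genotype in the Cx3cr1 levels was not tested. In primary BM monocytes, which had not been transferred, Cx3cr1 was at 8.42 in the library from a manipulated mouse and at 12.19 and 6.94 in those from non-manipulated mice, so that the libraries of non-manipulated mice lay far apart.

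Itgax encodes CD11c, an integrin that rises as monocytes mature. Levels were 7.36, 11.69 and 9.70 in manipulated recipients and 12.94, 13.33 and 12.34 in non-manipulated recipients, again without overlap. Here the non-manipulated libraries were close together, and the spread lay in the manipulated ones. The difference was -3.28 ± 0.99 (SE, n = 3 each), with a CI of -5.33 to -1.23 and a limma adjusted p of 0.111. Donor monocytes were defined in the study as CD11b+ CD11c low to intermediate CD64+ cells. Where they were counted in the spleen and other organs, they were also defined by Ly6C. Itgax, Fcgr1, the gene of CD64, and Ly6c1 are therefore not independent of such gates. The part of the gates in the differences of these genes was not tested. In primary BM monocytes Itgax was at 5.48 in the library from a manipulated mouse and at 4.64 and 5.16 in those from non-manipulated mice, below all 6 spleen libraries. Cx3cr1 and Itgax are also the only measured members of the list of Ly6C-low monocyte markers (2 of 5), whose summed normalised count ranged from 411 to 3762 in manipulated and from 7847 to 16983 in non-manipulated recipients.

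Other genes of macrophage maturation were lower too, though none of them passed the test. H2-Ab1, a chain of MHC class II, was at 12.20, 15.32 and 13.38 in manipulated recipients and at 16.22, 17.20 and 16.09 in non-manipulated recipients, a difference of -2.87 ± 1.62 (limma adjusted p = 0.406) with no overlap. Adgre1, which encodes the macrophage antigen F4/80, differed by -1.73 ± 0.86, and Csf1r, the receptor for the growth factor of monocytes and macrophages, by -1.01 ± 0.57, both with an adjusted p of 0.406 in limma and both without overlap. Cd68, a lysosomal protein of phagocytes named here after its values were seen, differed by -1.11 and did not overlap either. In contrast Mrc1, the mannose receptor CD206, was near the background in both groups, between 5.85 and 5.89 in manipulated and between 5.83 and 6.89 in non-manipulated recipients.

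Of the list of mature macrophage markers, 8 of 11 genes were measured, 0 passed the adjusted threshold, 1 (Cx3cr1) had an unadjusted p under 0.05, and 8 had a lower mean in manipulated recipients. Over all 57 genes 40 (70.2%) had a lower mean as well. The median difference of the list was -1.42, beside -0.28 over all 57 genes. Fcgr1 turned to a higher mean when Rpl19 was left out of the scaling or DESeq2 set its own size factors. The markers of Ly6C-high monocytes, 5 of 7 measured, had a median difference of 0.48, with 3 higher and 2 lower means and 0 genes past either threshold; Ccr2 turned to a higher mean with TMM factors, with the total count and without Rpl19. Ly6c1 differed by -0.77 ± 1.35, Ccr2 by -0.29 ± 0.69 and Cd44, an adhesion receptor for hyaluronan, by 0.48 ± 0.92. In these sorted pools fewer cells of a type and less RNA per cell cannot be told apart.

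Groups did not overlap in 11 of the 57 genes (19.3%). In 10 of them (17.5%) all manipulated libraries were lower: Cx3cr1, Itgax, H2-Ab1, Adgre1, Il10ra, Tlr1, Cd68, Csf1r, Tgfb1 and Il23a. Only Chil3 (1.75%) was higher in all manipulated libraries, by 0.67 ± 0.57, with 16.42 in the lowest manipulated library and 16.41 in the highest non-manipulated one. Of these, Tgfb1 differed by only -0.53, and Il23a lay near the background in both groups. Between same-numbered libraries 21 genes (36.8%) were lower in all 3 pairs, with Siglec1, Cxcl10 and Il10 besides those above, and 3 genes (5.26%), among them Chil3 and the angiogenic factor Vegfa, were higher in all 3.

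**Figure D2:**
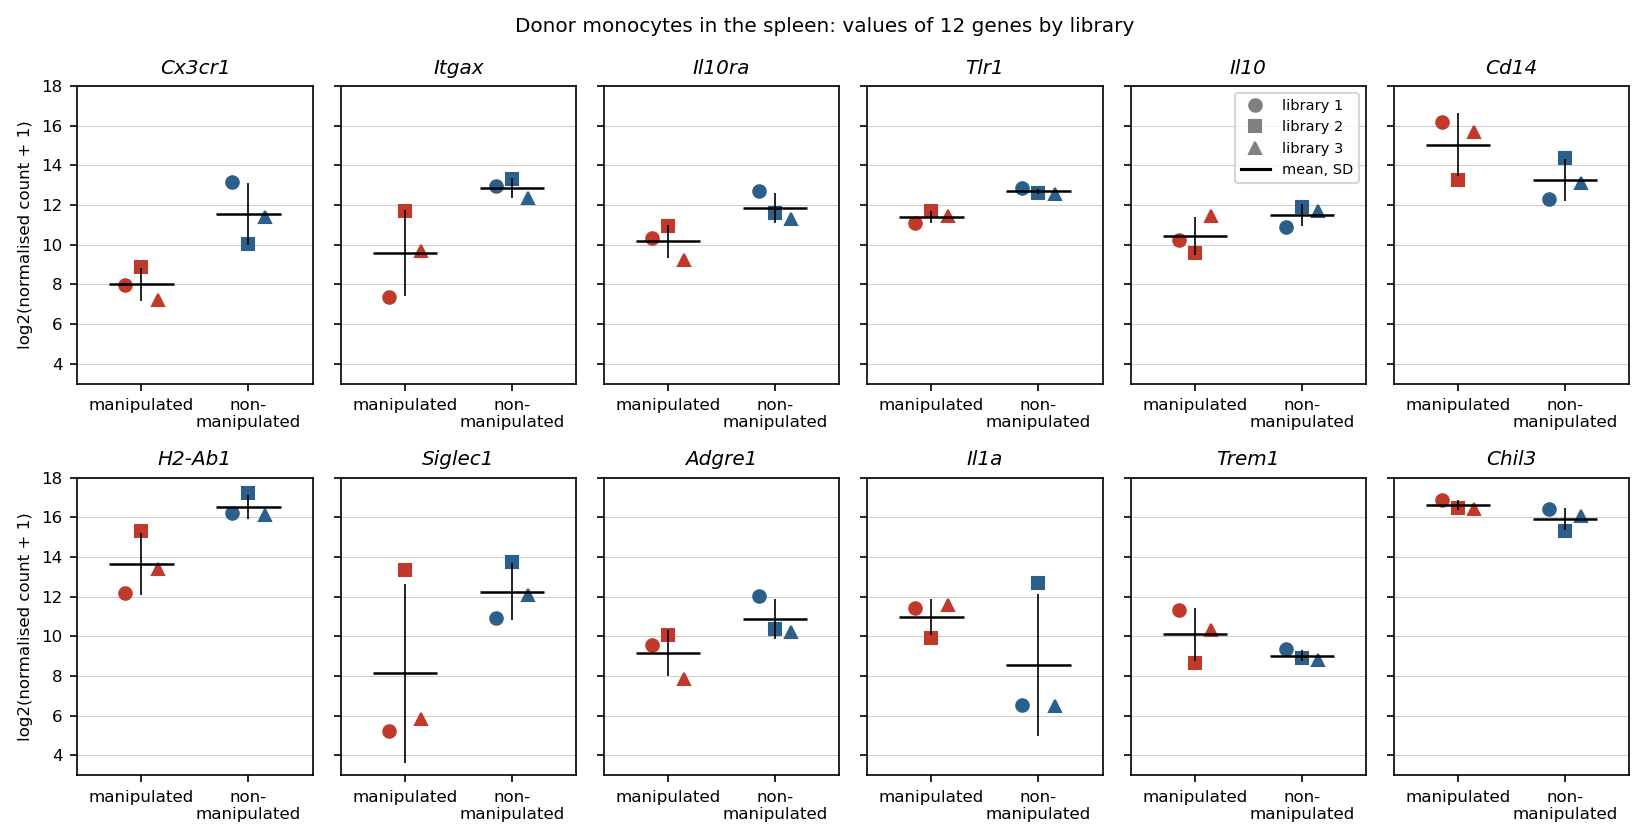
Level of 12 genes in each spleen library (y axis, log2 of the normalised count plus 1), with manipulated recipients in red and non-manipulated recipients in blue. Symbols give the library number, horizontal lines the group mean and vertical lines the SD (n = 3 each). Cx3cr1, Itgax, H2-Ab1, Il10ra, Tlr1 and Adgre1 do not overlap between groups, while Cd14 and Il1a overlap through library 2.

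Among genes of the interleukin-10 pathway, both the cytokine and its receptor had an unadjusted p under 0.05 in the common limma fit. In edgeR the unadjusted p was 0.031 for the receptor gene Il10ra and 0.101 for Il10. Il10ra, the ligand-binding chain of the receptor, was at 10.33, 10.92 and 9.25 in manipulated recipients and at 12.73, 11.59 and 11.28 in non-manipulated recipients. The difference was -1.70 ± 0.74 (limma adjusted p = 0.406, n = 3 each), and it was negative in 3 of 3 same-numbered pairs. Il10 itself, the anti-inflammatory cytokine, was at 10.26, 9.58 and 11.47 in manipulated recipients and at 10.90, 11.92 and 11.68 in non-manipulated recipients, a difference of -1.06 ± 0.51 with an adjusted p of 0.406. The 2 groups overlapped for Il10, through library 3 of manipulated recipients, and without library 2 of both groups the difference was -0.42. In the list of regulatory and alternative activation genes, 9 of 15 were measured, 0 passed after adjustment, 2 were lower at an unadjusted p under 0.05, and the median difference was -0.41 (-0.09 with TMM factors). Arg1, the arginase of alternatively activated macrophages, differed by 0.49 ± 1.35 and Tgfb1, another suppressive cytokine, by -0.53 ± 0.32.

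Cd14, the co-receptor for bacterial lipopolysaccharide, was the only gene with a higher level at an unadjusted p under 0.05 in the common limma fit. Its normalised count was 75547, 9680 and 51612 in manipulated recipients, against 5031, 21187 and 8698 in non-manipulated recipients. Libraries 1 and 3 of manipulated recipients exceeded every non-manipulated library, but library 2 of manipulated recipients lay below library 2 of non-manipulated recipients. The difference was 1.78 ± 0.67, 3.44-fold higher (CI 0.39 to 3.17, limma adjusted p = 0.265, n = 3 each), and between same-numbered libraries it was 3.91, -1.13 and 2.57. With the spread taken from the spleen libraries only, the unadjusted p of Cd14 was 0.105 in limma and 0.178 in the methods' t-test. Without library 2 of both groups, a choice made after the values were seen, the difference was 3.24.

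Il1a, a pro-inflammatory cytokine that acts at the cell surface and after release from damaged cells, also overlapped between the groups through library 2. Its normalised count was 2756, 967 and 3035 in manipulated recipients, against 90.4, 6596 and 87.9 in non-manipulated recipients, so that library 2 was the lowest of the manipulated and the highest of the non-manipulated libraries. The difference over all libraries was 2.41 ± 1.29 (limma adjusted p = 0.406, n = 3 each), while edgeR and DESeq2, which average counts before taking the logarithm, both gave -0.00. Without library 2 of both groups, a choice made after the values were seen, it was 5.00. In primary BM monocytes Il1a was at 6.61 in the library from a manipulated mouse and at 6.67 and 5.96 in those from non-manipulated mice, close to spleen libraries 1 and 3 of non-manipulated recipients. Il1b, the secreted relative, was at 13.66, 12.82 and 12.85 in manipulated and at 11.24, 13.62 and 11.94 in non-manipulated recipients, with a difference of 0.85 ± 0.68. Trem1, a receptor that amplifies inflammatory signals of monocytes and neutrophils, differed by 1.08 ± 0.82, and Traf6, an adaptor of Toll-like and interleukin-1 receptor signalling, by 0.78 ± 0.48. Library 2 of manipulated recipients was the lowest of its group for Il1b, Trem1 and Traf6 as well, and for these genes it lay below library 2 of non-manipulated recipients.

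Leaving out library 2 of both groups, an alternative chosen after the values were seen, gave 4 calls of 57 (7.02%): Cx3cr1 and Itgax were lower, and Cd14 and Il1a were higher in manipulated recipients. Their adjusted p-values were 0.026, 0.026, 0.0039 and 0.014 in limma, and their differences were -4.70, -4.10, 3.24 and 5.00. Each group then holds 2 libraries, whose spread is assumed to be that of the other groups in the fit. For these 4 genes library 2 was the pair with the smallest or an opposite difference. Leaving it out could only enlarge the differences, so the p-values are a description and no test. Without library 2 of manipulated recipients alone 2 genes were called, Cd14 and Itgax, and without library 2 of non-manipulated recipients alone 1 gene, Il1a. Libraries 1 and 2 of both groups, but not library 3, had been deposited as counts times 2, so that this factor is balanced between the groups, and the pair of unmultiplied libraries gave -4.19 for Cx3cr1, -2.63 for Itgax, 2.57 for Cd14 and 5.09 for Il1a.

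The list of pro-inflammatory cytokines and effectors held 5 measured genes of 10, of which 0 passed either threshold, with a median difference of -0.05, which turned to 0.28 with TMM factors. Tnf was at 12.51, 14.72 and 14.13 in manipulated recipients and at 12.59, 14.88 and 14.05 in non-manipulated recipients, so that same-numbered libraries were nearly level. Il6 exceeded the background in 1 of 3 manipulated and 2 of 3 non-manipulated libraries. Of pattern recognition and innate signalling genes 8 of 17 were measured, 0 passed after adjustment, and 1, Cd14, was higher at an unadjusted p under 0.05. Trem2, a lipid receptor of macrophages in the same list, was at 11.83, 10.66 and 11.44 in manipulated and at 12.98, 7.55 and 12.08 in non-manipulated recipients, so that its mean difference of 0.44 ± 1.07 rests on library 2 and was -0.89 without library 2 of both groups. Tlr1, which pairs with Tlr2 to sense bacterial lipopeptides and belongs to no list here, was at 11.08, 11.69 and 11.46 in manipulated and at 12.84, 12.63 and 12.58 in non-manipulated recipients. All manipulated libraries were thus lower, by -1.28 ± 0.59 on average (limma adjusted p = 0.406). Nod2, a cytosolic sensor of bacterial cell walls, differed by -0.63 ± 0.60.

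In the chemokine list all 7 measured genes of 13 had a lower mean in manipulated recipients, with 0 past either threshold and a median difference of -0.50, but Ccl8, Ccl22 and Cxcl1 turned to a higher mean with TMM factors, with the total count, without Rpl19 and with DESeq2's own size factors, which turned Cxcl9 as well. Cxcl1, a neutrophil attractant, was close to level between groups: 7.14, 7.19 and 7.37 in manipulated and 7.49, 7.49 and 6.85 in non-manipulated recipients. Ccl2 and Ccl7, both ligands of CCR2, differed by -0.50 ± 0.80 and -0.53 ± 1.64, and for both the highest spleen library was library 2 of non-manipulated recipients. Transcription factors behaved alike: 8 of 18 were measured, 8 had a lower mean, 0 passed either threshold and the median difference was -0.43, while Irf5, Nfkb2, Relb and Spi1 had a higher mean under those same 4 scalings. Nfkb1, a subunit of the inflammatory regulator NF-kB, differed by -0.63 ± 0.39, Stat6, which relays interleukin-4, by -0.65 ± 0.36, and Irf4, a regulator of alternative activation, by -0.55 ± 0.63. Of antigen presentation and costimulation genes 3 of 6 were measured. Beside H2-Ab1, Cd80 differed by 0.37 ± 0.58 and Cd86 by 0.12 ± 0.61, both of which are ligands that costimulate T cells. Homing and adhesion genes had a median difference of -0.22 over 8 measured genes of 16 (0.11 with TMM factors), with 2, Cx3cr1 and Itgax, lower at an unadjusted p under 0.05, and Itgb7, the integrin chain used for homing to the gut, differed by -0.28 ± 0.55. The 16 genes outside the rule for named genes had differences between -1.11 and 0.36.

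The narrowest intervals give the error between libraries under the main scaling, and the choice of scaling is not part of them. Ccl8, for example, differed by -0.17 in the main fit and by 0.21 without Rpl19. Tgfb1 (CI -1.20 to 0.13), Ccl8 (-0.85 to 0.52), Spi1 (-0.86 to 0.57), Stat6 (-1.38 to 0.09) and Nfkb1 (-1.43 to 0.18) had the smallest errors of the 57 genes. All but Ccl8, a chemokine read just above the background, were abundant in the 6 libraries. At the other end, the interval of Cxcl11 ran from -3.92 to 4.19 and that of Siglec1 from -8.53 to 0.32.

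Siglec1, Cxcl10, Cxcl9, Cxcl11 and Il1a had the widest ranges within a group, and all but Il1a are interferon-inducible. Siglec1, the macrophage receptor CD169, was at 5.23, 13.34 and 5.83 in manipulated recipients and at 10.90, 13.76 and 12.06 in non-manipulated recipients. Cxcl11, of the chemokine family that binds CXCR3 on T cells, was at 6.19, 13.39 and 7.32 in manipulated recipients. In non-manipulated recipients it was at 6.36, 12.94 and 7.20. In both groups library 2 was the highest for each of Siglec1, Cxcl9, Cxcl10, Cxcl11 and Fcgr1, a set named after its values were seen and described without a test. This was common on the panel, since library 2 was the highest of its group for 29 of the 57 genes in manipulated and for 33 in non-manipulated recipients. Its excess over the next library of its group was between 1.64 for Fcgr1 and 7.51 for Siglec1 in manipulated recipients, and between 0.88 for Fcgr1 and 5.74 for Cxcl11 in non-manipulated recipients. Ranks and excesses hold for the house-keeping scaling only. Its factor was lowest for library 2, which raises all levels of that library. In manipulated recipients it was 0.991 against 1.559 and 1.358, and in non-manipulated recipients 0.767 against 1.184 and 1.183. Between the number 2 libraries themselves, manipulated minus non-manipulated, the 5 genes differed by only -0.42 to 0.45.

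Cxcl10, of the same chemokine family, was at 12.09, 17.04 and 7.94 in manipulated recipients and at 13.79, 17.42 and 12.89 in non-manipulated recipients. It differed by -2.34 ± 1.80 (limma adjusted p = 0.618) and Cxcl9 by -2.16 ± 1.79, and the mean of Cxcl9 turned to 0.37 higher when DESeq2 set its own size factors. Apart from library 2, Siglec1, Cxcl9 and Cxcl10 were lower in both manipulated libraries than in both non-manipulated ones. Without library 2 of both groups none of the 5 genes passed the adjusted threshold. The differences of Siglec1, Cxcl9 and Cxcl10 were then -5.95, -3.39 and -3.32, whereas Cxcl11 and Fcgr1 differed by only -0.03 and -0.44.

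Promoter sequences of 3 of these 5 genes, Cxcl9, Cxcl10 and Fcgr1, were found in the RefSeq table of build GRCm38.p6, and 2 held a known interferon element in the 250 bases before the transcription start. The motifs searched on both strands were the core of the interferon-stimulated response element (ISRE), which is GAAA, any 2 bases and GAAA again, and TTCNNNGAA, the gamma-activated site (GAS) of interferon-gamma responses. The ISRE core was in 2.98% and the GAS in 7.02% of 32851 promoters of the table. The stretches around them are shown because both genes were among those highest in library 2 of each group, with the motif in capitals, 5′ to 3′ on the strand of the gene. Cxcl10 is on the minus strand of chr5:92349068-92349127 and its ISRE ends 204 bases before the start, and Fcgr1 is on the minus strand of chr3:96294045-96294103 and its GAS ends 101 bases before the start.
Cxcl10: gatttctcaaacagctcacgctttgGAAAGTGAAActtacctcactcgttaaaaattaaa
Fcgr1: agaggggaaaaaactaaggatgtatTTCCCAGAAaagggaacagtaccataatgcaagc
A match of letters is a description and does not show that a factor was bound in these cells, and the absence of either motif from the Cxcl9 window says only that these letters are not in it.

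Library 2 of BM showed the same genes at a high level. In BM of manipulated recipients Siglec1 was at 5.35, 13.61 and 8.69, and in BM of non-manipulated recipients at 11.73, 15.44 and 13.07. For Il1a the values in BM were 12.36, 6.31 and 11.34 in manipulated and 6.47, 6.60 and 6.46 in non-manipulated recipients, so that library 2 of manipulated recipients was at the level of non-manipulated recipients, unlike libraries 1 and 3. Cd14 in BM was at 16.33, 13.05 and 15.68 in manipulated and at 13.18, 13.33 and 13.06 in non-manipulated recipients. The labels do not tell which source, if any, the number 2 libraries share.

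**Figure D3:**
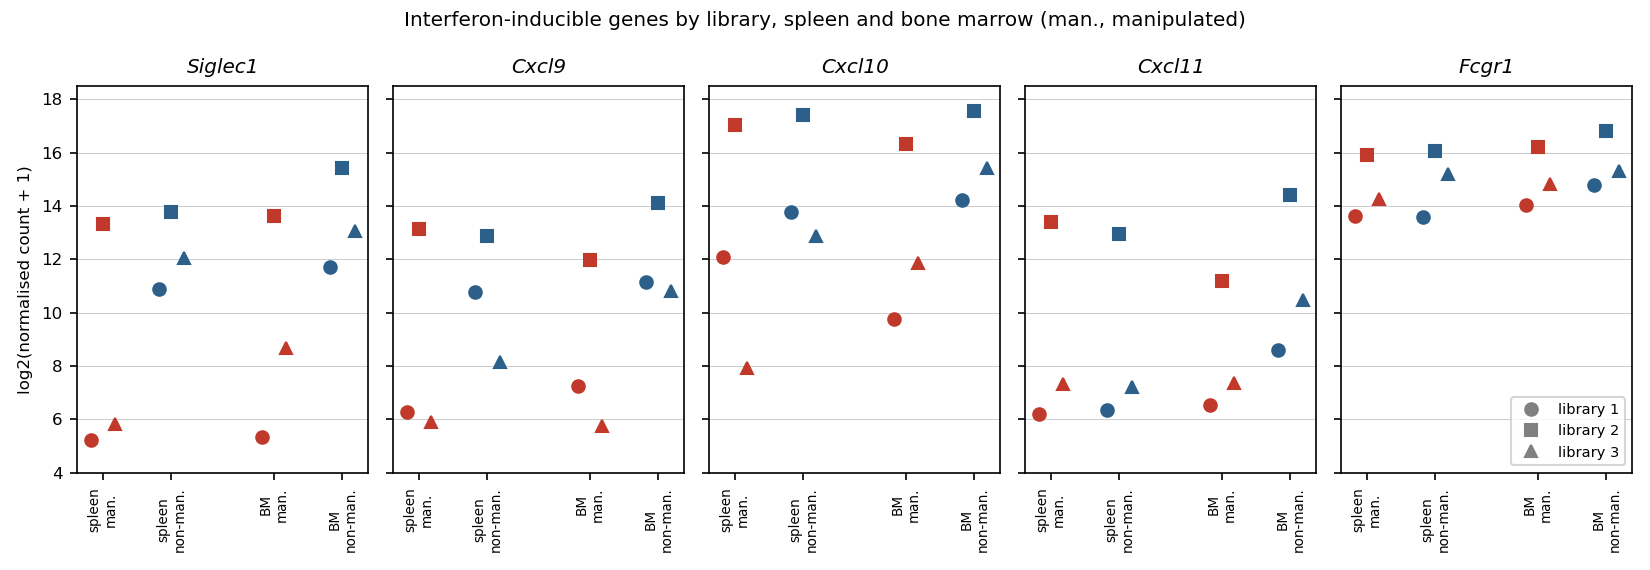
Level of 5 interferon-inducible genes in each library of spleen and BM (y axis, log2 of the normalised count plus 1), manipulated recipients in red and non-manipulated recipients in blue, with symbols for the library number. The square, library 2, is the highest point in each of the groups drawn, and in the spleen the squares of both groups lie within 0.45 of each other.

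Changes in the spleen were then set against those in the other tissues through the difference of differences in the same fit. Compared with the small intestine, the change in the spleen was lower for 7 of 57 genes (12.3%) and higher for 0 at an adjusted p under 0.05: Ccl7, Arg1, Il6, Il23a, Cxcl1, Ccl2 and Il10. At an unadjusted p under 0.05 there were 9 genes (15.8%), with Tnf among the 8 lower ones (14%) and Ccr2 as the only higher one (1.75%). Cxcl1 had 11.06 to 12.66 in the intestine of manipulated recipients, with a median of 11.48 over 5 libraries, and 7.34 to 8.70 in that of non-manipulated recipients, with a median of 8.05 over 4 libraries, whereas all 6 spleen libraries lay between 6.85 and 7.49. Ccl7 had 12.61 to 14.92 (median 14.53) in the intestine of manipulated and 6.18 to 6.87 (median 6.44) in that of non-manipulated recipients, with no overlap. For both chemokines the intestine of manipulated recipients lay above the other 3 groups without overlap. The spleen change minus the intestinal change was -3.77 ± 0.71 for Cxcl1 (limma adjusted p = 0.0010) and -8.17 ± 2.13 for Ccl7 (adjusted p = 0.011). Il6 (-5.37 ± 1.22, adjusted p = 0.0033) and Il23a (-4.25 ± 1.36, adjusted p = 0.042), cytokines that promote inflammatory T cell responses, were at or close to the background in the spleen of both groups. Arg1 had 12.50 to 17.94 in the intestine of manipulated and 7.82 to 9.21 in that of non-manipulated recipients, against 6.57 to 8.19 and 6.66 to 7.63 in the spleen of manipulated and non-manipulated recipients, a difference of changes of -5.95 ± 1.75 (limma adjusted p = 0.026).

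For Il10 the mean differences had opposite signs in the 2 tissues. Its level in the small intestine had a mean of 13.83 ± 0.35 in manipulated recipients (SD, n = 5) and 11.96 ± 0.45 in non-manipulated recipients (SD, n = 4), and in the spleen 10.44 ± 0.96 and 11.50 ± 0.53 (SD, n = 3 each). The difference between these changes was -2.94 ± 0.66 with a limma adjusted p of 0.0033. For Ccl2 (-3.14 ± 1.04, adjusted p = 0.047) the call was lost with the replicate number as a block, at 6 calls in place of 7. Ccl2 and Il23a were also lost without Rpl19, with the series matrix values, with background subtracted, and with scaling by TMM or by total count. Arg1 and Il10 were lost with the total count, and Arg1 and Ccl7 with background subtracted or without library 2 of the spleen of non-manipulated recipients. Cxcl1 and Il6 kept their calls in every alternative run for this comparison.

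**Figure D4:**
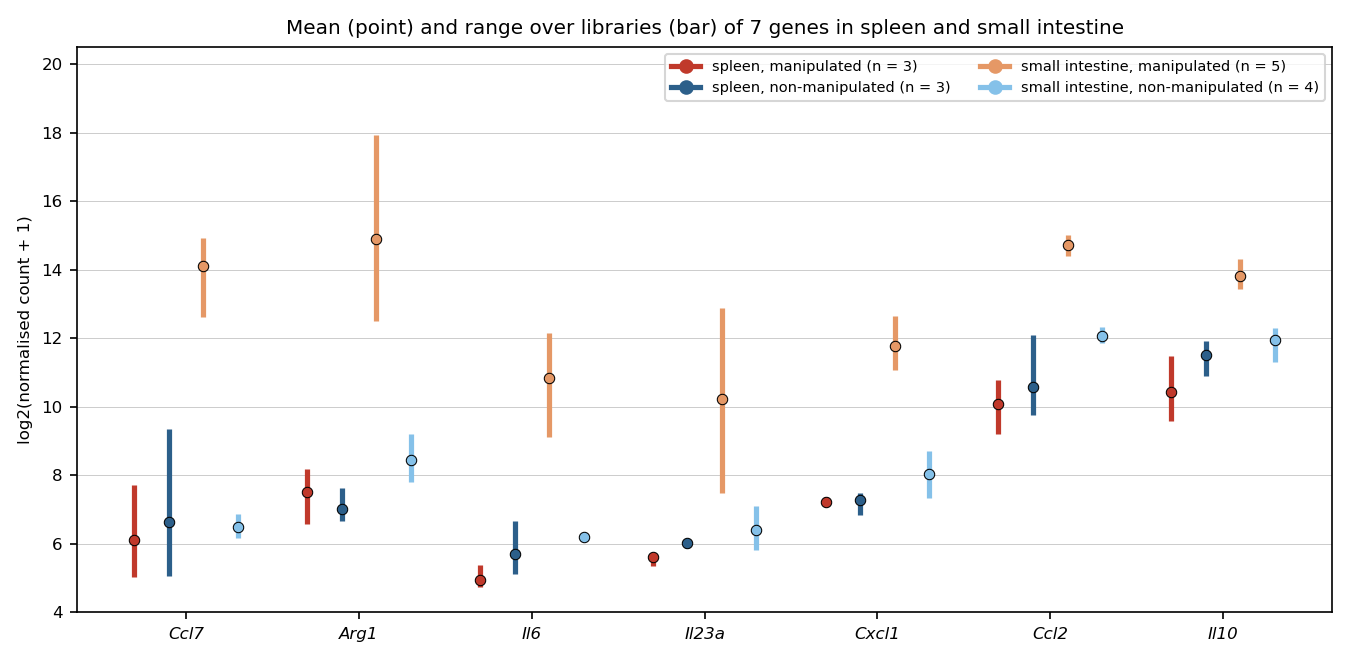
Mean (points) and range over libraries (bars) of the 7 genes whose change differed between spleen and small intestine (y axis, log2 of the normalised count plus 1), with manipulated before non-manipulated recipients in each tissue. In the spleen the group means lie within 1.06 of each other, while the ranges in the intestine are apart for all 7 genes.

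The genes that led the spleen comparison had no call between tissues by limma, while DESeq2 on house-keeping factors called Il1a between spleen and small intestine. Cx3cr1 changed by -3.86 in the small intestine, -3.18 in BM and -2.23 in the liver, beside -3.52 in the spleen, and the differences between the spleen change and each of these were 0.34 ± 1.43, -0.34 ± 1.56 and -1.29 ± 1.66. Itgax changed by -3.46 in the small intestine, -3.83 in BM and -2.31 in the liver. A p that misses the threshold does not show that the changes are alike, and the errors leave room for a difference of more than 1 log2 unit in either direction. Cd14 changed by 0.91 in the small intestine, 1.83 in BM and 0.26 in the liver, beside 1.78 in the spleen. Il1a changed by 3.92 in the small intestine and 3.49 in BM, beside 2.41 in the spleen, and by 0.19 in the liver, where its levels were between 13.90 and 15.30 in non-manipulated recipients, far above those of the spleen libraries 1 and 3. Against BM, 0 of 57 genes (0%) passed the adjusted threshold and 1 (Il10) had an unadjusted p under 0.05, with 0 called by edgeR and 0 by DESeq2. Against the liver 0 of 57 genes (0%) passed and 1 (Ccr7) had an unadjusted p under 0.05, with 0 called by edgeR and, where DESeq2 set its own size factors, 1, again Ccr7. Whether 1 mouse gave libraries of several tissues is not stated in the labels, and the fit without the replicate block treats all libraries as independent.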

How the data were processed

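Monocytes had been sorted as 100 cells per library, reverse transcribed and pre-amplified, and counted on nCounter. The deposited table holds counts of barcodes in 15 libraries and, in 18, a signal read here as counts times a constant per lane. It was 2 for libraries 1 and 2 of each spleen group, and the reason for it is not stated. The constant of each lane was searched for as a value whose division gives whole numbers within 0.002 for every gene. That 100% of 1086 values became whole follows from this choice and is no separate check. The deposited series matrix, a score equal to that table times a factor per lane, was an alternative. The authors' aligner and genome build do not apply, and names were matched to RefSeq transcripts for 69 of 72 names and by symbol for 3.

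Counts were divided by the geometric mean of Actb, Gapdh and Rpl19, and log2 values with a pseudocount of 1 were tested with limma 3.58.1 (R 4.3.3, two-sided) in a fit over 33 libraries and 11 groups. Genes above background (negative controls, mean and 2 SD) in at least 2 libraries were kept (57 of 57). Adjustment was by Benjamini-Hochberg over 57 genes within each of 4 comparisons. P-values measure the spread between libraries. Alternatives were the scaling, pseudocount, background, filter, samples in the fit, lane factor, replicate block, edgeR 4.0.16, DESeq2 1.42.0 and each library left out, with scripts tested on simulated data.

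Members and gene lists were chosen with earlier results of these data known. Genes named were those past a threshold, the 10 largest differences each way, up to 4 of each list, the 5 narrowest intervals, the 5 widest ranges within a group and 20 fixed genes; Cd68, Fcgr1, Ly6c1, Ccr7, Vegfa, Irf5, Nfkb2, Relb and Ccl22 were added after their values were seen. Deviations of same-numbered spleen libraries from their group means correlated at 0.409, 0.53 and 0.591, so the numbers were treated as pairs in the alternative fit with the replicate block; this pairing comes from the data, not from the labels. The values of 2 of the 57 genes are not reported here; they stayed in the fit and in all counts.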

Additional observations from a re-analysis of the deposited data

Results flagged for a closer look

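Each of 7 genes had a change in the spleen that differed from its change in the small intestine (limma, adjusted p under 0.05). The change in the spleen minus the change in the intestine, in log2 units, was -5.95 for Arg1, -3.14 for Ccl2, -8.17 for Ccl7, -3.77 for Cxcl1, -2.94 for Il10, -4.25 for Il23a and -5.37 for Il6. No spleen group was large enough to look for single outlying libraries by the gap to the nearest value.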

How the results depend on the processing

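The count of 0 calls in the spleen held with the TMM, total-count, reduced house-keeping and series matrix scalings in limma, the pseudocount of 20, both filters, background subtraction, the compared groups alone, the lane factor, the replicate block (0 calls) and edgeR. It was 2 with DESeq2 under either kind of size factor, 4 with the methods' t-test unadjusted (Csf1r, Cx3cr1, H2-Ab1 and Tlr1), between 0 and 2 with each library left out, and 4 without library 2 of both groups. In the comparison with the small intestine the 7 calls became 3 with the total count and 3 with background subtracted, and lay between 3 and 7 with each library left out. The libraries that moved that count by over 1.5 times were number 2 of spleen manipulated recipients (4 calls), number 2 of spleen non-manipulated recipients (3 calls) and numbers 3 and 4 of intestine manipulated recipients (4 calls each). With the replicate block there were 6 calls, and the block changed no other call. The comparison with the liver had 1 call, Ccr7, when DESeq2 set its own size factors. Of 21 genes named for a threshold or for size, 17 kept their sign in all settings tried. Cxcl9 turned to 0.37 with DESeq2's own size factors and Il1a to -0.00 with edgeR and with DESeq2 on house-keeping factors. Trem2 turned to -0.65 with edgeR and with DESeq2 on house-keeping factors, to -0.25 with DESeq2's own, and to -0.89 without library 2 of both groups, and lay between -1.22 and 1.50 with each library left out, while Cd44 lay between -0.14 and 1.14. The causes were not tested. Over all 57 genes 70.2% had a lower mean in manipulated recipients, 45.6% with TMM factors or the total count, 77.2% without Actb and 43.9% without Rpl19. With 3 libraries a group, differences under about 1.41 log2 units were within the median confidence interval.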
